A study of Rattus norvegicus with 4 samples.

Results

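The genes described here encode proteins that fill, dock, fuse and retrieve synaptic vesicles at the nerve terminal. The list holds 48 genes chosen by what their products do, and 47 of them had at least 1 named probe on the array, with 53 probes in all; Synj1 had none. They stand among 8899 genes that could be named from the array. The signal of 44 of the 47 genes stood well above background, in either dye and on each of the 4 chips, as did that of 5927 of all named genes. Stx2, Sv2c and Syt6 did not reach this throughout.

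A synaptic vesicle is loaded with transmitter by transporters in its membrane and is brought to the active zone, a protein scaffold on the inner face of the terminal. There, SNARE proteins of the vesicle and of the plasma membrane zip together, and synaptotagmins on the vesicle trigger fusion when calcium enters. NSF then takes the spent SNAREs apart, and the vesicle membrane is recovered by endocytosis. In the hippocampus this machinery serves the excitatory pathways on which learning-related plasticity is studied.

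RNA came from the hippocampus of male Wistar rats, 10 weeks old when the experiment began and housed alone. Sedentary rats (Sed, group of 10) had standard cages, WR rats (group of 8) had a running wheel without resistance, and RWR rats (group of 8) had a wheel with resistance, which started at 4.5 g in the first week and reached 30% of body weight within the 4 weeks of running. RNA of rats of 1 group was pooled in equal amounts that come to 3 replicates a pool by the study's methods. Chips 1 and 2 compared the WR pool with the sedentary pool and chips 3 and 4 the RWR pool with the sedentary pool, with the running pool in Cy5 on chips 1 and 3 and in Cy3 on chips 2 and 4. A pair of chips thus holds 1 biological replicate, read again with the dyes exchanged. No test between conditions was possible and no error across rats is given.

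A log2 ratio is given as running over sedentary throughout, first on each chip and then as the mean of both chips of a pair. In pooled bulk tissue, fewer cells of a type and less RNA per cell cannot be told apart. Marker genes of hippocampal neurons and of other cell types were read as well. A marker that passes the background flag does not settle the tissue, since Ttr of choroid plexus and Gh1 of pituitary passed it throughout too. All 5 markers of hippocampal neurons that had a probe passed the background flag throughout, and their mean log2 ratios lay between 0.01 and 0.10 in WR and between -0.03 and 0.17 in RWR. The 4 oligodendrocyte markers all had means below 0, from -0.08 to -0.06 in WR and from -0.24 to -0.07 in RWR. The 5 choroid plexus markers ranged from -0.86 to 0.43 in WR and from -0.43 to 0.59 in RWR, and the 2 of them that were well above background throughout, Ttr and Folr1, were at -0.86 and -0.21 in WR and at 0.12 and 0.06 in RWR. The part of these markers in the values below was not tested.

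No presynaptic gene was called in either comparison. A call needed a ratio above 1.5-fold on both chips or below 0.75-fold on both, with the single-chip p-value of the scanner software under 0.01 on both. In WR, 0 of 47 were called against 0.0674% of all named genes, and in RWR 0 of 47 against 0.0674%. At a smaller step, past 1.2-fold in the same direction on both chips (0.263 on the log2 scale), the count was again 0 of 47 in WR, where 1.58% of all named genes passed, and 0 of 47 in RWR, where 2.76% passed. Among genes well above background, 0 of 44 passed this step in WR against 0.405%, and 0 of 44 in RWR against 0.371%. With backgrounds this small, a list of this size is not set apart by a count of 0.

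The presynaptic genes lay close to the sedentary level in both running pools. The 47 genes had a median of -0.01 in WR and of 0.01 in RWR on the log2 scale, and the medians of all named genes were 0.00 and 0.00. Normalization between dyes centres each chip near 0, so the medians of all genes were set by it. Closeness to the sedentary level is thus relative to the other genes on the array. In WR, 37 of the 47 means were under 0.1 in size and 45 under 0.2. In RWR, 35 were under 0.1 and 43 under 0.2. For genes well above background, 37 of the 44 presynaptic genes (84.1%) and 81.8% of the 5927 named genes were under 0.1 in size in WR, and 33 of the 44 and 78.6% in RWR.

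**Figure D1:**
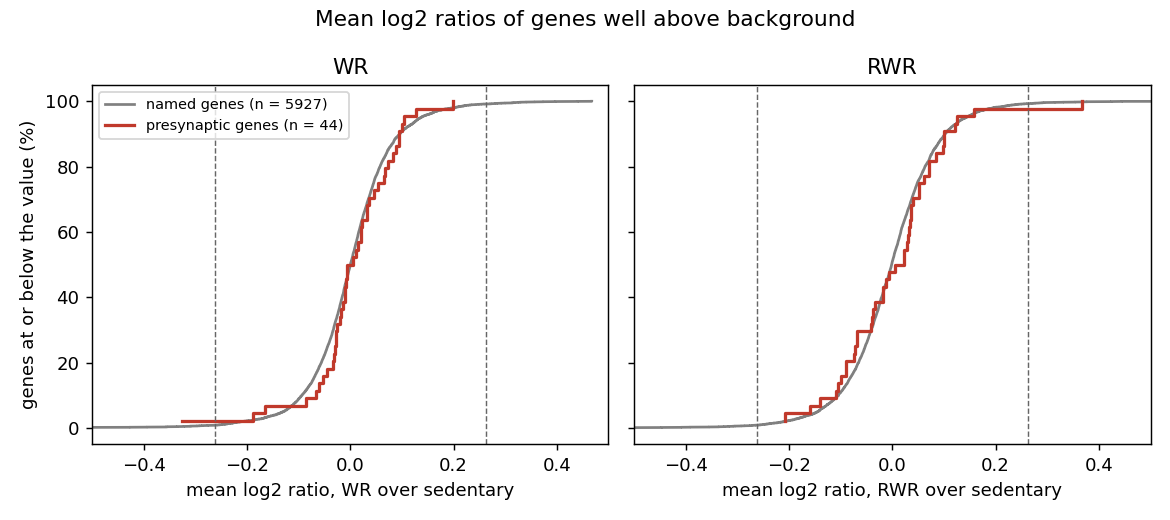
Share of genes (%) at or below each mean log2 ratio for WR over sedentary (left) and RWR over sedentary (right), for the 44 presynaptic genes (red) and the 5927 named genes (grey) that were well above background; dashed lines mark 1.2-fold. The red steps follow the grey curve in both panels, and 2 presynaptic means lie past a dashed line, Unc13c on the low side in WR and Unc13b on the high side in RWR.

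The chips of a pair often pointed in opposite directions. Among the 44 genes well above background, 4 were above 0 on both chips in WR, 9.09% against 14.7% of all genes at this signal, and 6 were below 0 on both, 13.6% against 15.3%. In RWR, 2 were above 0 on both chips, 4.55% against 15.8%, and 7 were below 0 on both, 15.9% against 17.0%. The genes above 0 on both chips were Stx1a, Pclo, Stx3 and Vamp1 in WR and Sv2a and Syp in RWR. Those below 0 on both were Unc13c, Slc17a6, Syt4, Nsf, Doc2a and Vamp3 in WR, and Vamp1, Nsf, Syt4, Rims1, Napa, Cadps and Slc17a6 in RWR.

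The larger part of most chip ratios changed sign with the dye. Splitting a pair into its mean and a dye term (the part of the log2 ratio that is Cy5 over Cy3 whichever pool carries the dye) gave a median dye term of 0.12 in size in the WR pair and 0.14 in the RWR pair over the 44 genes. The median mean was 0.04 and 0.07 in size. Over the 5927 named genes well above background, the median dye term was 0.09 and 0.09 in size and the median mean 0.04 and 0.05. The dye term had the same sign in both pairs for 41 of the 44 genes, 93.2%, and for 84.7% of all named genes well above background. Across the 44 genes, the ratios of the chips of a pair, turned to running over sedentary, had r = -0.64 in WR and r = -0.60 in RWR. Across the 5927 named genes r was -0.61 and -0.51, so opposite chip signs were found across the array. These points share the chips and the pools, and r is a description across genes.

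**Figure D2:**
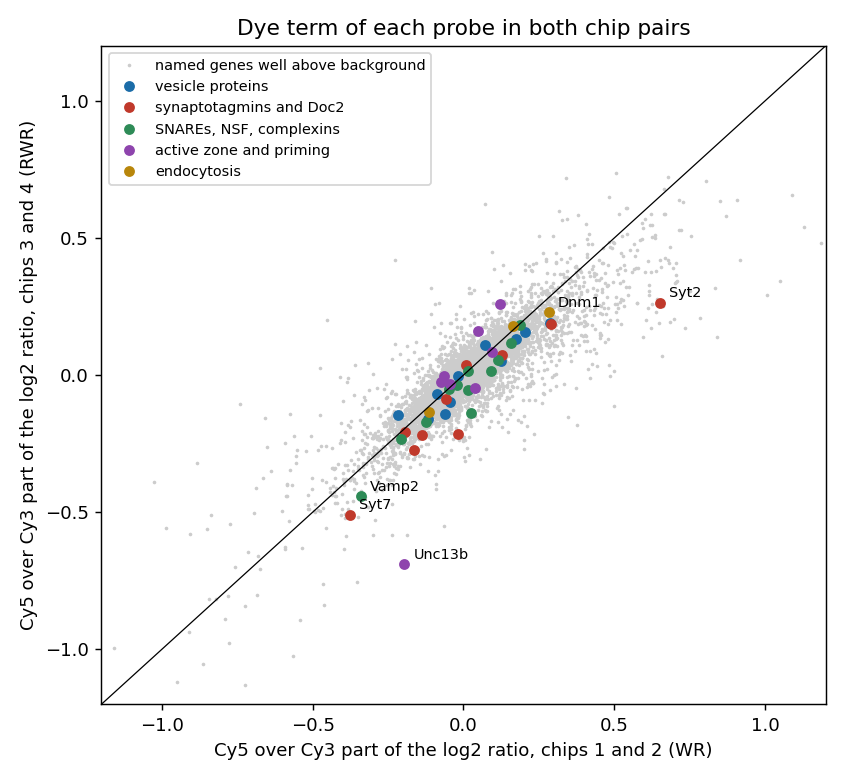
Dye term of each gene well above background, Cy5 over Cy3 on the log2 scale, in the WR chip pair (horizontal axis) and the RWR chip pair (vertical axis); coloured points are presynaptic genes by role, grey points all named genes (4 of 5927 lie outside the axes), and the line marks equality. Most presynaptic genes lie along the line, from Vamp2 and Syt7 at the lower left to Dnm1 at the upper right, and Unc13b and Syt2 lie away from it.

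How far the dye term differed between the pairs gives the spread of a single chip, and from it a technical error for a mean of 2 chips. This error was 0.05 on the log2 scale for the 38 genes with a mean signal of 100 or more and 0.20 for the 6 dimmer genes. The value of 0.20 rests mainly on Unc13b and Syt2, whose dye terms differed by 0.49 and 0.39 between the pairs. The median difference of the 6 genes was 0.15 in size. The median mean of the 38 genes was 0.03 in size in WR and 0.06 in RWR. The WR median was thus under the technical error of 0.05 and the RWR median over it. A median size and an error are unlike measures, so they are only set side by side. Some single genes had larger means, given below. The technical error leaves out differences between rats.

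**Figure D3:**
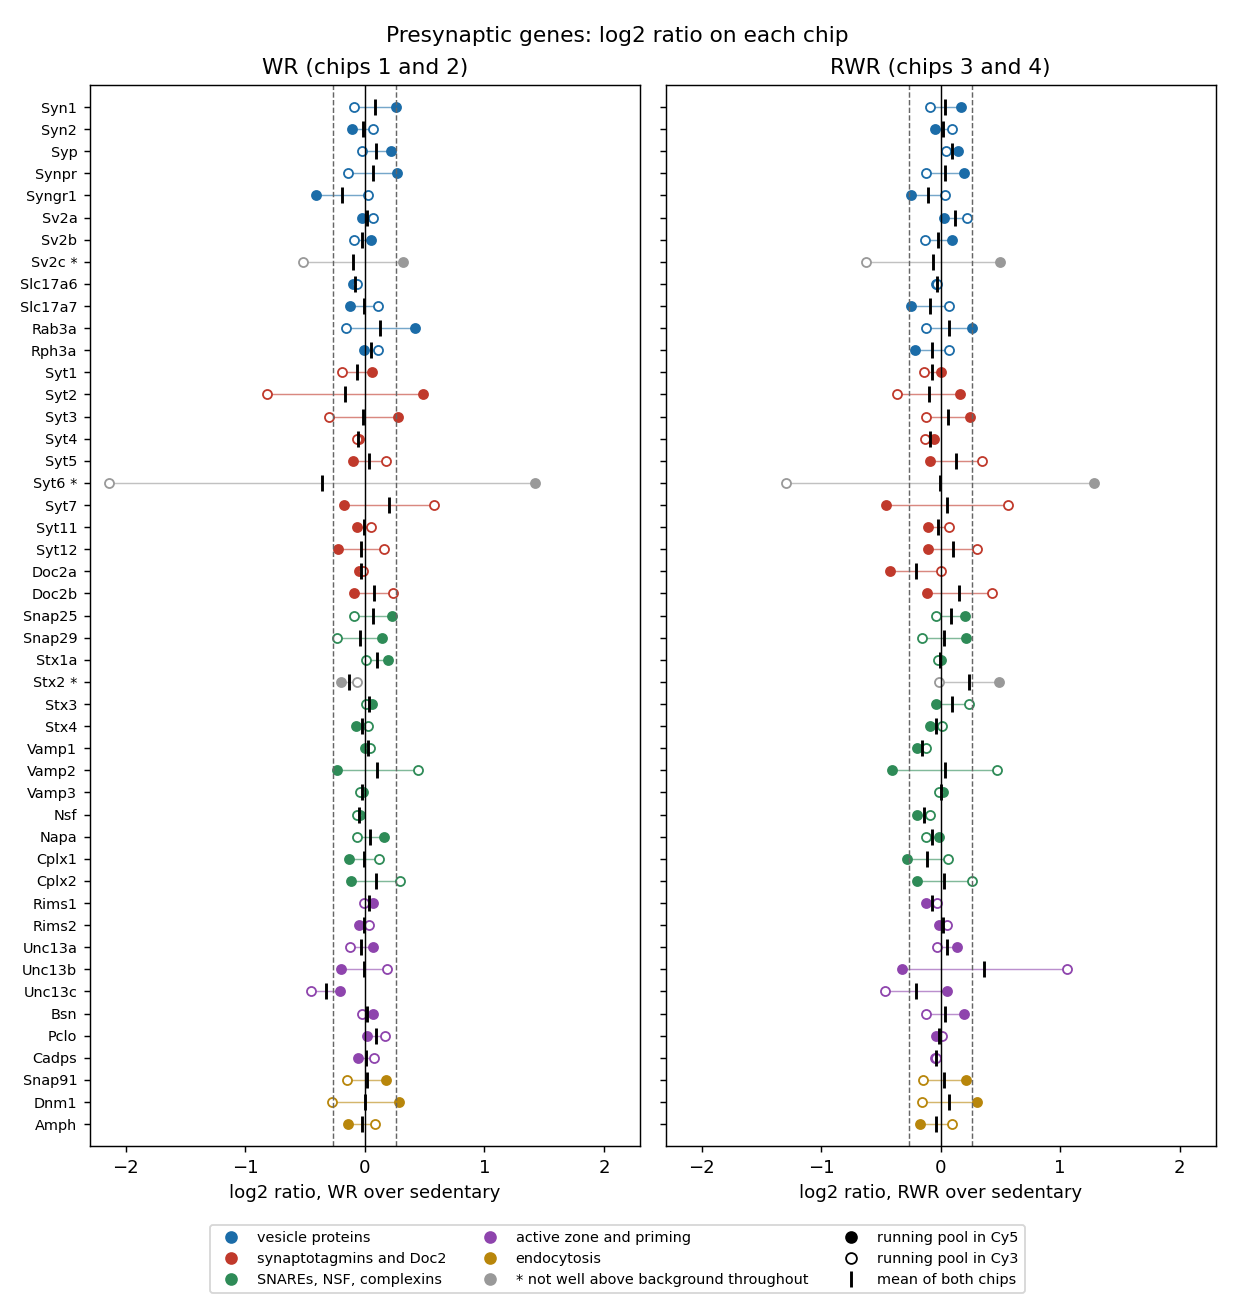
Log2 ratio of each of the 47 presynaptic genes on each chip, WR over sedentary (left) and RWR over sedentary (right), ordered by role; filled points have the running pool in Cy5, open points in Cy3, black ticks are the mean of both chips, grey rows with an asterisk were not well above background throughout, and dashed lines mark 1.2-fold. Filled and open points lie on opposite sides of 0 for most genes, and for no gene do both points of a pair lie past the same dashed line.

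Synapsins coat the cytoplasmic face of the vesicle and tether it to its neighbours. The processed signal of Syn1 in the sedentary pool was 367 and 399 in Cy3 (chips 1 and 3) and 377 and 395 in Cy5 (chips 2 and 4). It was 354 in Cy3 and 438 in Cy5 in the WR pool, and 371 and 450 in the RWR pool. The sedentary readings thus lay between the Cy3 and the Cy5 reading of the WR pool, and all but that of chip 1 between those of the RWR pool. The log2 ratio of Syn1 was 0.26 and -0.09 on the WR chips, mean 0.08, and 0.17 and -0.09 on the RWR chips, mean 0.04. Syn2 had means of -0.02 and 0.02.

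Synaptophysin, Syp, an abundant membrane protein of the vesicle, was read at 12486 and 13704 in Cy3 and 12632 and 12782 in Cy5 in the sedentary pool. Its signal was 12385 in Cy3 and 14528 in Cy5 in the WR pool, and 13194 and 15198 in the RWR pool. The ranges of sedentary and running signals overlapped. The log2 ratios were 0.22 and -0.03 in WR, mean 0.10, and 0.15 and 0.05 in RWR, mean 0.10. Its relatives Synpr (synaptoporin) and Syngr1 (synaptogyrin) went apart in sign. Synpr had means of 0.07 and 0.04. Syngr1 was -0.41 and 0.03 in WR, mean -0.19, and -0.25 and 0.04 in RWR, mean -0.11. Both of its means thus came from the chips with the running pool in Cy5.

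Among the SV2 glycoproteins of the vesicle membrane, Sv2a had log2 ratios of -0.02 and 0.07 in WR, mean 0.02. In RWR they were 0.03 and 0.22, mean 0.12. Sv2a was above 0 on both chips in RWR, and the single-chip p-values there were 0.902 and 0.287. Sv2b had means of -0.02 and -0.02 at its brightest probe. Its next probe had means of 0.05 and 0.01, and its dimmest probe -0.21 and -0.05. The Sv2b probes thus differed in sign. Sv2c was well above background in 3 of 8 readings and not in the WR pool on either chip, so no fold is given.

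The vesicular glutamate transporters load glutamate into vesicles, Slc17a7 (VGLUT1) in most hippocampal and cortical neurons and Slc17a6 (VGLUT2) mainly in subcortical inputs. Slc17a7 was at -0.13 and 0.11 in WR, mean -0.01, and at -0.25 and 0.07 in RWR, mean -0.09. Slc17a6 was at -0.10 and -0.07 in WR, mean -0.09, and at -0.04 and -0.03 in RWR, mean -0.03. Slc17a6, Nsf and Syt4 were the 3 of the 44 genes that lay below 0 on all 4 chips. Its probe was printed as 10 spots on each chip. The SD between these spots was 0.02 to 0.03 on the log2 scale, and the spots ranged from -0.14 to -0.07 on chip 1, from -0.13 to -0.02 on chip 2, from -0.10 to -0.01 on chip 3 and from -0.10 to 0.02 on chip 4.

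Rab3a, the small GTPase that brings vesicles to the active zone, had ratios of 0.41 and -0.16 in WR, mean 0.13, and 0.26 and -0.12 in RWR, mean 0.07. Its effector Rph3a (rabphilin) had means of 0.05 and -0.07. Both genes changed sign with the dye in both pairs.

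Synaptotagmin 1, Syt1, is the calcium sensor of fast release in forebrain neurons. Its brighter probe read 0.06 and -0.19 in WR, mean -0.07, and 0.00 and -0.14 in RWR, mean -0.07. The other Syt1 probe read -0.07 and 0.19 in WR, mean 0.06, and -0.00 and 0.15 in RWR, mean 0.07. The probes thus differed in sign on each of the 4 chips by nearly equal amounts, and no direction can be given for Syt1.

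The further synaptotagmins had small means or dim probes. Syt3 had means of -0.01 and 0.06, Syt5 0.04 and 0.13, Syt11 -0.01 and -0.02, and Syt12 -0.03 and 0.10. Syt4, a form that binds calcium weakly, was at -0.05 and -0.07 in WR, mean -0.06, and at -0.05 and -0.13 in RWR, mean -0.09. It lay below 0 on all 4 chips, by amounts of the order of the technical error.

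Syt2 and Syt7 had wide gaps between the chips of a pair. Syt2, the fast calcium sensor of hindbrain and of some inhibitory terminals, was at 0.49 and -0.82 in WR, mean -0.16, and at 0.16 and -0.36 in RWR, mean -0.10. Syt7, linked to asynchronous release, was at -0.18 and 0.58 in WR, mean 0.20, and at -0.46 and 0.56 in RWR, mean 0.05. Their mean signals were 65.8 and 59.6.

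Syt6 had the widest gap of the 47 genes. It read 1.43 and -2.14 in WR and 1.28 and -1.30 in RWR, with a Cy5 over Cy3 term of 1.78 and 1.29. Single-chip p-values under 0.01 on chips 2, 3 and 4 went with opposite signs within the RWR pair. Syt6 was well above background in 3 of 8 readings and not in the WR pool on either chip, so no fold is given. A p-value under 0.01 on any chip was found for 3 presynaptic genes in all, Syt6, Syt2 on chip 2 and Unc13b on chip 4. Per chip, 0, 2, 1 and 2 of the 47 genes were under 0.01 on chips 1 to 4, against 2.75%, 5.53%, 5.09% and 4.36% of the named genes.

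The Doc2 proteins are high-affinity calcium sensors of spontaneous release. Doc2a was at -0.05 and -0.01 in WR, mean -0.03, and at -0.42 and 0.01 in RWR, mean -0.21, and chip 3 alone carried the RWR value. Doc2b had means of 0.07 and 0.16 and a mean signal of 75.2.

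Snap25, the plasma membrane SNARE of neurons, was read in the sedentary pool at 35706 and 36125 in Cy3 and 34241 and 32757 in Cy5. The signal was 32162 in Cy3 and 41694 in Cy5 in the WR pool, and 31977 and 41548 in the RWR pool. Both running pools lay below the sedentary range in Cy3 and above it in Cy5. The log2 ratios were 0.22 and -0.09 in WR, mean 0.07, and 0.20 and -0.03 in RWR, mean 0.08. Its 8 or 9 spots per chip had an SD of 0.01 to 0.02, so the gap between the chips of a pair was wider than the spread of the spots. Snap29, a broadly expressed relative, had means of -0.04 and 0.03, and its dimmer probe 0.06 and 0.06.

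Stx1a, the syntaxin that pairs with Snap25, read 0.19 and 0.01 in WR, mean 0.10, and 0.01 and -0.02 in RWR, mean -0.01. On chip 2 its 10 spots ran from -0.13 to 0.09, on both sides of 0, with an SE of 0.02. The spots share the same labelled RNA, so this SE describes the spots only. The other syntaxins act in membranes beyond the terminal as well. Stx3 was at 0.06 and 0.01 in WR, mean 0.03, and at -0.04 and 0.24 in RWR, mean 0.10. Stx4 had means of -0.03 and -0.04, and Stx2 -0.13 and 0.24 with 5 of 8 readings well above background.

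Vamp2, the main vesicle SNARE of forebrain synapses, showed one of the strongest dye terms. Its signal in the sedentary pool was 10278 and 10598 in Cy3 but 6802 and 6541 in Cy5. It was 9244 in Cy3 and 8733 in Cy5 in the WR pool, and 9090 and 7991 in the RWR pool. In each pool the Cy3 signal was above the Cy5 signal. The log2 ratios were -0.23 and 0.44 in WR, mean 0.10, and -0.41 and 0.47 in RWR, mean 0.03. The second Vamp2 probe repeated this, with -0.22 and 0.50 in WR, mean 0.14, and -0.37 and 0.49 in RWR, mean 0.06. Chip 4 alone would have shown Vamp2 past 1.2-fold higher in RWR and chip 3 past 1.2-fold lower, while the mean lay within the technical error.

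**Figure D4:**
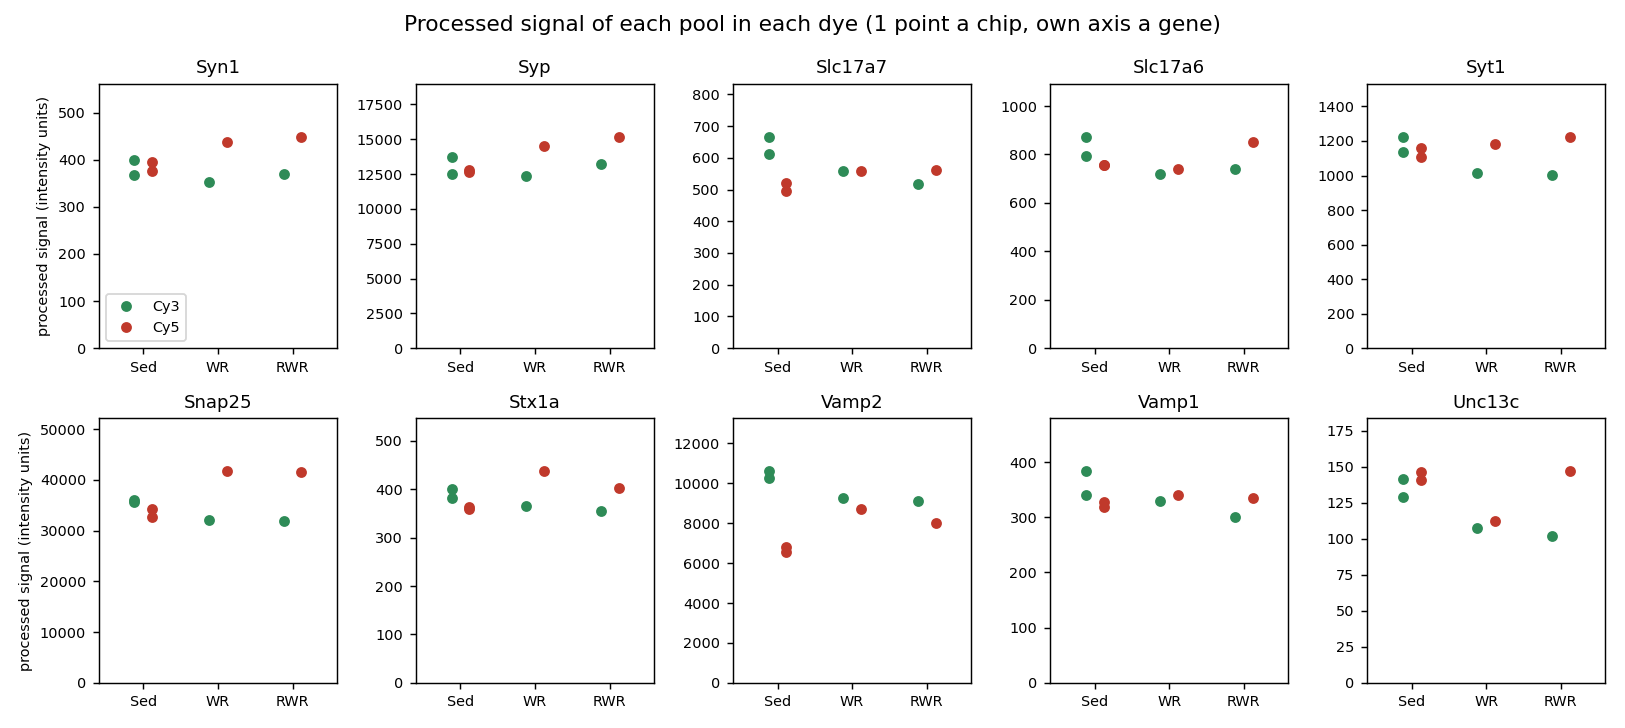
Processed signal (intensity units, axes from 0) of 10 presynaptic genes in the sedentary, WR and RWR pools, 1 point a chip, green for Cy3 and red for Cy5, each gene on its own axis. For Vamp2 the Cy3 points lie above the Cy5 points in every pool, for Snap25 the running pools lie on both sides of the sedentary points, and for Vamp1 the RWR point in Cy3 is the lowest.

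Vamp1, the vesicle SNARE that prevails in brainstem and spinal cord and is found in a subset of forebrain neurons, differed in sign between the running pools. It was at 0.00 and 0.04 in WR, mean 0.02, and at -0.19 and -0.12 in RWR, mean -0.16, a ratio of 0.896. Its second probe was at -0.12 and 0.08 in WR, mean -0.02, and at -0.21 and -0.16 in RWR, mean -0.18. All 4 RWR readings from both probes were below 0. The single-chip p-values of the brighter probe in RWR were 0.347 and 0.549.

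Since WR and RWR were both set against the sedentary pool, the running pools were also compared on chips where they carried the same dye, after the signals had been rescaled to 1 distribution between chips. Vamp1 in RWR over WR was -0.17 in Cy5 and -0.15 in Cy3, while the sedentary pool on the same chips differed by 0.03 and 0.01. Over the 44 genes the median size of RWR over WR was 0.10 in Cy5 and 0.08 in Cy3. The sedentary pool against itself gave 0.05 and 0.07. Vamp1 did not stand alone in this, since Cplx1 was at -0.17 and -0.15 against -0.02 and -0.09 for the sedentary pool, and Slc17a7 at -0.14 and -0.14 against -0.02 and -0.10. The value of each pool depends on the rescaling. From the processed signals as deposited, Vamp1 in RWR over WR was -0.02 in Cy5 and -0.13 in Cy3, and the sedentary pool differed by 0.17 and 0.04. Rescaling moved both pools of a chip together, so the gap between RWR over WR and the sedentary difference stayed the same. That gap restates the chip ratios against the sedentary pool and is no separate check. With 1 pool per group this is not a test.

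**Figure D5:**
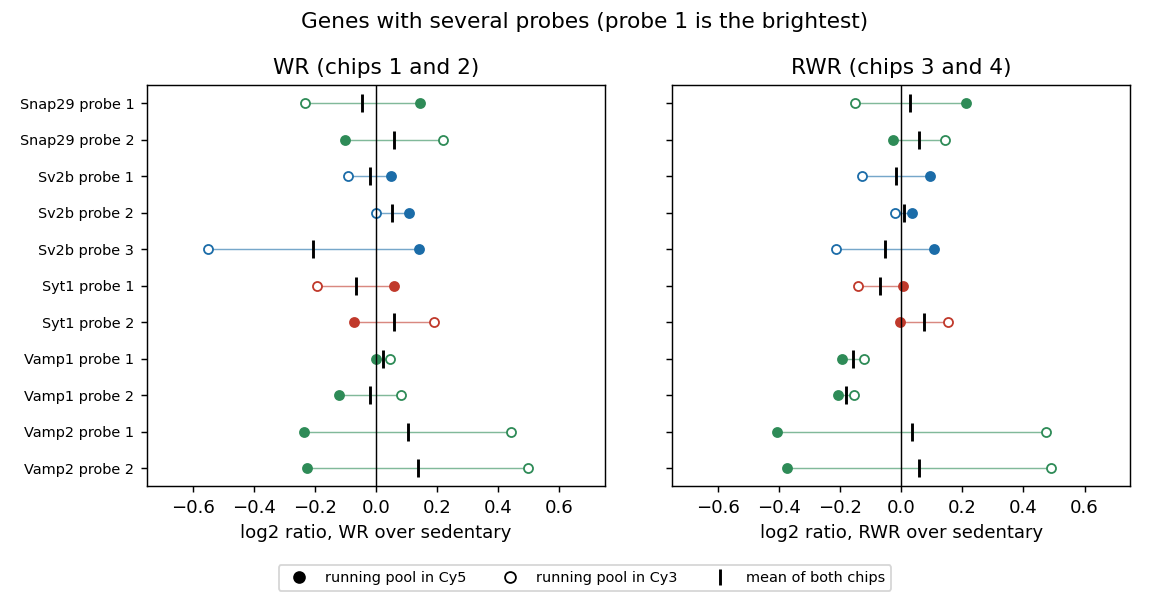
Log2 ratio of each probe of the 5 presynaptic genes with several probes, WR over sedentary (left) and RWR over sedentary (right); filled points have the running pool in Cy5, open points in Cy3, and black ticks are means of both chips. Both Vamp1 probes lie below 0 on both RWR chips, both Vamp2 probes show the same wide gap between dyes, and the Syt1 probes have their filled and open points in opposite order.

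Vamp3 (cellubrevin), found in most cells, was at -0.01 and -0.04 in WR, mean -0.03, and at 0.02 and -0.01 in RWR, mean 0.01. NSF, the ATPase that separates spent SNARE complexes, was at -0.04 and -0.07 in WR, mean -0.05. In RWR it was at -0.19 and -0.09, mean -0.14, so it lay below 0 on all 4 chips. Its signal was 310 and 359 in Cy3 and 292 and 289 in Cy5 in the sedentary pool, and 272 in Cy3 and 313 in Cy5 in the RWR pool. In RWR over WR after the same rescaling, Nsf was at -0.09 in Cy5 and -0.07 in Cy3, against 0.07 and -0.04 for the sedentary pool. The Cy3 difference was thus close in size to that of the sedentary pool with itself. Napa (alpha-SNAP), which recruits NSF, had means of 0.05 and -0.07 and was below 0 on both RWR chips, at -0.01 and -0.12. The complexins, which clamp and assist the SNARE complex, changed sign with the dye. Cplx1 had means of -0.01 and -0.11, and Cplx2 0.09 and 0.03.

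The 8 genes of the active zone and of priming had means from -0.33 to 0.09 in WR and from -0.21 to 0.37 in RWR. Bsn (bassoon) had means of 0.02 and 0.04, and Rims2 -0.01 and 0.02. Cadps (CAPS1), which primes dense-core vesicles, was at -0.05 and 0.08 in WR, mean 0.01, and at -0.04 and -0.04 in RWR, mean -0.04. Pclo (piccolo) was at 0.02 and 0.17 in WR, mean 0.09, and at -0.04 and 0.01 in RWR, mean -0.01. Rims1 (RIM1) was at 0.07 and -0.00 in WR, mean 0.03, and at -0.12 and -0.03 in RWR, mean -0.07.

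The Munc13 proteins open syntaxin and make vesicles ready to fuse, and over both comparisons the lowest and the highest mean of the 44 genes well above background were theirs. Unc13c was at -0.20 and -0.45 in WR, mean -0.33, a ratio of 0.798, and at 0.05 and -0.47 in RWR, mean -0.21. Its signal in the sedentary pool was 129 and 142 in Cy3 and 146 and 141 in Cy5. It was 107 in Cy3 and 112 in Cy5 in the WR pool, and 102 and 147 in the RWR pool. Both WR readings were thus below all 4 sedentary readings, while RWR lay below in Cy3 and above in Cy5. Without background correction the WR mean of Unc13c was -0.16, and with normexp, another background model, -0.14.

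Unc13b was at -0.20 and 0.19 in WR, mean -0.01, and at -0.32 and 1.06 in RWR, mean 0.37, with a single-chip p of 0.0036 on chip 4. Its signals were between 17.1 and 41.1. The sedentary reading of 17.1 on chip 4 was the lowest of the 4, and against the Cy5 reading of the same pool on chip 2 it differed by -0.64 on the log2 scale, and by -0.86 after the rescaling between chips. RWR over WR in Cy3, from the same chips, was 0.23 from the processed signals and 0.00 after rescaling. In Cy5, from chips 1 and 3, RWR over WR was -0.63 from the processed signals and -0.73 after rescaling. The sedentary pool on those chips differed by -0.51 and -0.61. The part of the low sedentary reading in the RWR ratio was not tested. Unc13a, the main form in the forebrain, had means of -0.03 and 0.05.

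Dnm1, the dynamin that pinches off recovered vesicles, was at 0.29 and -0.28 in WR, mean 0.00, and at 0.30 and -0.16 in RWR, mean 0.07. Its 10 spots had an SD of 0.02 to 0.03 on each chip. The opposite signs in WR were thus far apart relative to the spots and cancelled in the mean. The clathrin adaptor Snap91 (AP180) had means of 0.02 and 0.03, and Amph (amphiphysin) -0.03 and -0.04.

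Other genes of the release pathway, 106 further genes such as Munc18 proteins, Rab3 relatives, neurexins and clathrin subunits, were described by counts. Of the 79 with a named probe, 0 were called in WR and 0 in RWR, against the shares given above. Past 1.2-fold on both chips were 1 gene in WR, Syn3, higher, at 0.32 and 0.30, and 1 in RWR, Syt9, lower, at -0.74 and -1.18. Neither was well above background throughout. The 71 genes that were had means from -0.22 to 0.33 in WR and from -0.19 to 0.32 in RWR, with medians of 0.02 and 0.01.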

How the data were processed

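Hippocampal RNA pools of Sed, WR and RWR rats were measured on 4 chips in 2 colours with a dye swap; chips were grouped from the labels of each dye. Scans were read by the authors in Agilent Feature Extraction 11.0.1.1, with spatially detrended background subtraction and LOWESS between dyes. The deposited processed signal is an intensity per dye. The deposited log10 ratio is Cy5 over Cy3, and the deposited p-value comes from the software's error model for 1 chip. The other deposited columns used were flags for spots well above background and for outliers. The deposited series matrix gives, for 45018 features, log10 of red over green processed signal and served as an alternative.

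Ratios were converted to log2 with the running pool as numerator. Control spots and 118 to 140 outlier spots per chip were left out, and spots of a probe were averaged, leaving 41012 probes. Probes were named through the RefSeq accession of the array design in the RefSeq table (GRCr8, names only): 10768 probes of 8899 genes. A gene was represented by its probe with the highest mean signal. Per chip, 67.5% to 82.5% of probes were well above background in a dye; the number of chips limits the precision. Alternatives used limma 3.58.1 in R 4.3.3, with an offset of 50 for normexp, and same-dye comparisons used its Aquantile scaling.

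Values are given in full for genes called, for the 6 highest and 6 lowest means among genes of the same sign on both chips and well above background, and for Syn1, Syp, Syt1, Snap25, Stx1a, Vamp2, Slc17a7 and Slc17a6; fewer than 6 genes were above 0 on both chips, so all genes of the same sign were included. Others were described after their values were seen. The genes, lists and rules were chosen with earlier results of these data known. The technical error, the signal limit of 100 and the same-dye comparison were added after the values were seen. The selection was tested on simulated data.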

Additional observations from a re-analysis of the deposited data

Results flagged for a closer look

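Vamp1 is listed because every reading of its brighter probe went opposite ways in the running pools, above 0 on both WR chips and below 0 on both RWR chips. RWR minus WR was -0.18 on the log2 scale. The difference was not tested, since each group is 1 pool and both comparisons share the sedentary pool. The WR side of it rests on ratios of 0.00 and 0.04, and the second Vamp1 probe was below 0 on chip 1, at -0.12.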

How the results depend on the processing

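No presynaptic gene was called, and none passed 1.2-fold on both chips, under any alternative that kept both chips of a pair. On 1 chip alone, 0 to 2 genes met the call in WR (Syt2 and Syt6) and 1 to 2 in RWR (Syt6 and Unc13b). On 1 chip alone, 8 to 9 passed 1.2-fold in WR and 9 to 10 in RWR. These counts rest on a single dye orientation. The shares of all named genes under these 1-chip rules were not worked out, so the counts cannot be read as high or low. The median of the list in WR, -0.0073, was 0.0015 with normexp, 0.0021 without background correction, 0.0014 with the median over the probes of a gene, and -0.00063 with dim genes left out, and lay between -0.013 and -0.012 on single chips. The median in RWR lay between -0.036 and -0.020 on single chips. The cause was not tested. Of 94 gene means, 8 moved by more than the SD between the chips of the pair with normexp and 5 without background correction. That SD holds the dye term, so a smaller move is no sign of stability. With both chips kept, 20 of 94 gene means changed sign under some setting, and the largest of these was 0.10 in size. Unc13b in RWR was 0.37 and came to 0.16 with normexp and 0.13 without background correction. No paired analysis was possible because each group is 1 pool and the chips of a pair are dye swaps of the same pools.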

Other observations

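Among the further genes of the release pathway, 3 stood at the ends of the RWR range. Svop, a transporter-like protein of the vesicle related to SV2, was at 0.02 and 0.07 in WR, mean 0.04, and at 0.23 and 0.40 in RWR, mean 0.32. Slc18a2 (VMAT2), which loads monoamines into vesicles, was at 0.11 and -0.12 in WR, mean -0.01, and at 0.39 and 0.19 in RWR, mean 0.29. Both were above 0 on both RWR chips, with single-chip p-values from 0.0541 to 0.253 for Svop and from 0.0597 to 0.35 for Slc18a2. Erc2, a scaffold protein of the active zone, was at 0.09 and 0.12 in WR, mean 0.11. In RWR it was at -0.11 and -0.27, mean -0.19, with single-chip p-values of 0.604 and 0.264. Its mean signal of 77.2 was in the range of the 6 dimmer presynaptic genes, where the technical error was 0.20. Erc2 is not among those genes, and that error rests mainly on Unc13b and Syt2. Svop, Slc18a2 and Erc2 were chosen after their values were seen.

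Of the 4 genes with a probe that were listed as markers of thalamus and habenula, Prkcd and Calb2 were well above background throughout. Whether RNA of Calb2 or of the others came from those regions or from the hippocampus itself was not tested. Prkcd and Calb2 both lay below 0 on both chips in WR and had means above 0 in RWR. Prkcd was at -0.04 and -0.21 in WR, mean -0.13, and at 0.30 and 0.18 in RWR, mean 0.24. Calb2 was at -0.05 and -0.12 in WR, mean -0.08, and at 0.11 and -0.04 in RWR, mean 0.03. Lef1 and Rgs16, not well above background throughout, had means of -0.14 and 0.20 in WR and -0.11 and -0.27 in RWR.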
